A study of Mus musculus with 12 samples.

Results

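Psap, which encodes the precursor protein prosaposin, and Gpr37 and Gpr37l1, which encode 2 G protein-coupled receptors proposed for its secreted form, were followed through ribosome pull-downs from the mouse gut muscle layer. The 3 genes were picked by name out of the 12975 genes counted. In naive tissue all 3 were more abundant in the pull-down directed to enteric glial cells (EGCs) than in its control. At 3 h after surgical handling of the bowel Psap was 1.68-fold higher in the EGC pull-down, but naive and manipulated mice overlapped. The Psap rise passed the test threshold in 10 of 13 alternative settings. In the same pull-down Gpr37l1 was 1.83-fold lower and Gpr37 3.50-fold lower, both without overlap. These folds are fitted values and differ from ratios of the mean levels given below. The count of Psap relative to each receptor was higher in each manipulated mouse than in each naive mouse.

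All mice carried PLPCreERT2, a tamoxifen-inducible Cre recombinase directed to EGCs by a glial promoter, together with Rpl22HA, a ribosomal protein gene that gains an HA tag after Cre recombination. Every mouse, naive ones included, had received tamoxifen in 2 intraperitoneal injections (100 µl of 15 mg/ml) at 10 to 12 weeks of age and was killed 3 to 4 weeks after the first. The whole small intestinal muscularis, which holds the myenteric plexus, came from 3 naive mice (T0) and from 3 other mice taken 3 h after intestinal manipulation (T3). Each homogenate was divided between anti-HA antibody and an isotype IgG, which gave 12 libraries in the 4 groups HA T0, HA T3, IgG T0 and IgG T3, with 3 libraries each. Animals are numbered 1, 2 and 4 at T0 and 1, 3 and 4 at T3, and an equal number at both times does not mean the same mouse. T0 mice had no operation, so the effects of anaesthesia, laparotomy and handling cannot be told apart.

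Prosaposin is delivered to lysosomes by sorting receptors and is cut there by proteases into saposins, small proteins that present sphingolipids to the enzymes that degrade them. A part of prosaposin leaves the cell uncut, and this form is known as a trophic factor for neurons and glia. GPR37 and GPR37L1 are close relatives that resemble endothelin receptors and are reported to couple to inhibitory G proteins. Both are found mostly in glia, GPR37 mainly in oligodendrocytes and GPR37L1 mainly in astrocytes.

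Libraries held 1221788 to 2870591 unique molecular identifier (UMI) counts in HA and 88136 to 1289833 in IgG, and the IgG T3 libraries (88136 to 248522) were the least precise. Levels are given as UMI counts scaled to the library total (CPM). They carry no length scaling because only the 3′ ends of transcripts were counted. Of the 14 glial marker genes tested at T0, 13 were higher in HA, and Gpr37l1 itself is 1 of these 13. Of the smooth muscle markers 9 of 9 were lower. The HA pull-down also held more of 3 of the 4 markers of interstitial cells of Cajal, the pacemaker cells of the muscle layer. Where this RNA came from was not tested, and the HA signal cannot be assigned to EGCs alone.

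On the mm10 assembly Psap lies on the plus strand at chr10:60277627-60302597 with up to 15 exons in a transcript. Gpr37 lies on the minus strand at chr6:25665878-25690729 with up to 3 exons, and Gpr37l1 on the minus strand at chr1:135160234-135167681 with 2. No other annotated gene reached into the window at the 3′ end of any of the 3 genes, from 1000 bases before to 100 bases after it, in which reads were counted. These windows were drawn from the gene ends of GENCODE vM21, whereas the submitters give their annotation as Gencode version 10, so the ends used in their counting may differ. The sequences around the start sites are shown because Psap and the receptor genes moved in opposite directions. Each window of 300 bases (RefSeq, GRCm38.p6) is printed 5′ to 3′ on the strand of the gene, from 250 bases before to 50 bases after its start as RefSeq gives it, which for Gpr37 lies inside the gene as annotated above, and capitals mark the match to a searched motif.
Psap, chr10:60277378-60277677, plus strand: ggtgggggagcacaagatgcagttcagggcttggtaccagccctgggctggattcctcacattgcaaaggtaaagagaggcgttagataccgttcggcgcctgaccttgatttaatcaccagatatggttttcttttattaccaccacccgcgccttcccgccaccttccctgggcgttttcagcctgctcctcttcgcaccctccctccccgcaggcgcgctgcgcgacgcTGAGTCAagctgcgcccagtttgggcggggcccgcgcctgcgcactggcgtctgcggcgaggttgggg
Gpr37, chr6:25689931-25690230, minus strand: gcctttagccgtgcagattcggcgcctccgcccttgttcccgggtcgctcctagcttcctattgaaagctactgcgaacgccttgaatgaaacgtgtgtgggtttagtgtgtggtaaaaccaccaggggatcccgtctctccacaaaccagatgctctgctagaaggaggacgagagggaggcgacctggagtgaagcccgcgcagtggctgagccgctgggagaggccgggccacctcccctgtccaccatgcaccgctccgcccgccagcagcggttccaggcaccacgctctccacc
Gpr37l1, chr1:135167632-135167931, minus strand: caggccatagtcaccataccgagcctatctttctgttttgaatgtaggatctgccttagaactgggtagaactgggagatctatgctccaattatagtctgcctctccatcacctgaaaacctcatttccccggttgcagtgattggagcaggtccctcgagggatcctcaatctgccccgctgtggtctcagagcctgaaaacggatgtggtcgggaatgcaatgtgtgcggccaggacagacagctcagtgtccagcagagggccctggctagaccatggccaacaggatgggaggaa

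Searched on both strands were the AP-1 site TGANTCA, the cAMP response element TGACGTCA and the E-box CACGTG. None of these 3 motifs contains another. The Psap window holds 1 match, the AP-1 site TGAGTCA, which begins 18 bases before the start. Among 32851 such windows of all genes 7.81% hold the AP-1 letters, 1.79% the cAMP response element and 7.15% the E-box. The windows of Gpr37 and Gpr37l1 hold none of the 3 motifs, nor does a second Psap window at chr10:60284211-60284510. These matches describe the letters only.

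To ask how far the EGC pull-down carried each gene in naive muscularis, HA and IgG were compared at T0. Psap was at 2294, 1710 and 1341 CPM in the HA libraries of animals 1, 2 and 4, and at 723.8, 671.9 and 683.8 CPM in their IgG libraries. Every HA value lay above every IgG value, although the IgG background of this gene was substantial. The log2 fold change was 1.34 (SE 0.23, adjusted p = 0.000584, edgeR's quasi-likelihood test with Benjamini-Hochberg adjustment), with 1782 ± 480.4 CPM in HA and 693.2 ± 27.2 in IgG (SD, n = 3). Psap was thus among the abundant transcripts of both pull-downs, at rank 54 of 12975 genes by mean CPM in HA T0 and rank 201 in IgG T0.

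Gpr37l1 was at 1874, 1566 and 1728 CPM in the HA T0 libraries and at 69.5, 77.1 and 48.1 CPM in the IgG T0 libraries, the latter from 27, 45 and 62 counts. HA and IgG stood far apart in each mouse. The gene was 26.7-fold higher in HA (log2 fold change 4.74, SE 0.25, adjusted p = 3.17e-08, edgeR), which placed it 26th from the top of the 9823 genes tested. It ranked 57th by mean CPM in HA T0 and 2701st in IgG T0.

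Gpr37 was a gene of low level found almost entirely in the HA libraries of naive tissue. Its HA T0 libraries held 109, 80 and 198 counts (41.8, 44.7 and 68.98 CPM), and its IgG T0 libraries 0, 0 and 1. Summed over the mice these were 387 counts among the HA reads against 1 in IgG, a ratio of 120.5 with a 95% interval of 21.5 to 4770, an interval that covers counting error only. In edgeR's test the difference passed (adjusted p = 2.86e-06) and the fitted change was the 7th largest upward of all genes, but its size depends on a single count in the control. All 3 genes were called higher, where 30.3% of the genes tested were called in this comparison, 16% higher and 14.4% lower in HA, and 44.8% did not overlap.

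**Figure D1:**
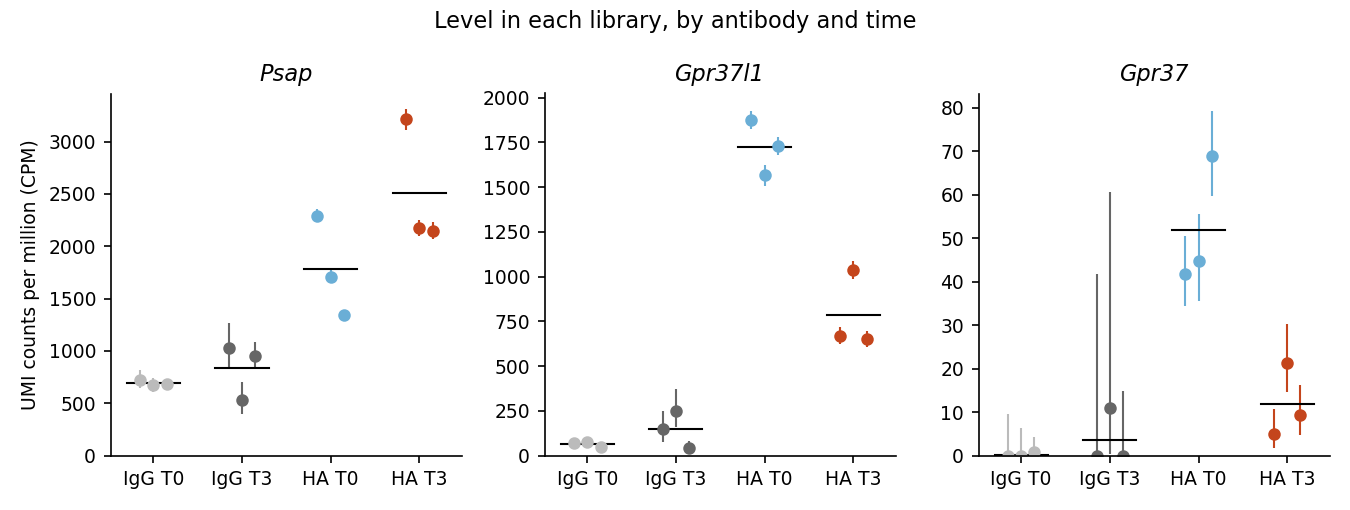
Level of Psap, Gpr37l1 and Gpr37 in each of the 12 libraries (points, CPM, linear axes from 0) by antibody and time, with 95% Poisson intervals of the count as vertical lines and the group mean as a horizontal line. Psap in HA overlaps between T0 and T3, while both receptors in HA T3 (Gpr37l1 649.3 to 1036 CPM, Gpr37 4.91 to 21.4 CPM) sit below all HA T0 libraries.

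At T3 the same question was asked of manipulated tissue. Psap was at 3212, 2171 and 2149 CPM in the HA libraries of animals 1, 3 and 4 and at 1032, 532.5 and 953.6 CPM in IgG. HA remained above IgG in all 3 mice without overlap. The log2 fold change was 1.66 (SE 0.31, adjusted p = 0.00076, edgeR). Gpr37l1 was at 669.5, 1036 and 649.3 CPM in HA against 147.5, 249.9 and 44.3 CPM in IgG, from 13, 23 and 11 IgG counts, with a log2 fold change of 2.70 (SE 0.42, adjusted p = 0.000275). Both tested genes were called, beside 21.9% of 7200 genes (11.8% upward, 10.2% downward in HA), with 35.8% free of overlap.

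Gpr37 was too low for this test. It had 6, 32 and 12 counts in the HA T3 libraries and 0, 1 and 0 in the IgG T3 libraries. The summed ratio was 5.36 with an interval of 0.918 to 215.7, so that a difference between HA and IgG was not detectable at this depth. A count of 0 in the shallowest IgG library allows up to 34.04 CPM, more than any HA T3 value of the gene.

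Within single mice the ratio of HA to IgG for Psap was 3.17, 2.55 and 1.96 at T0 and 3.11, 4.08 and 2.25 at T3. These ranges overlapped. For Gpr37l1 the folds were 26.9, 20.3 and 35.95 at T0 and 4.54, 4.14 and 14.7 at T3. The 3 mice of T3 all lay below the 3 mice of T0, and animal 4 of T3 stood nearer to the naive mice than the other two.

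**Figure D2:**
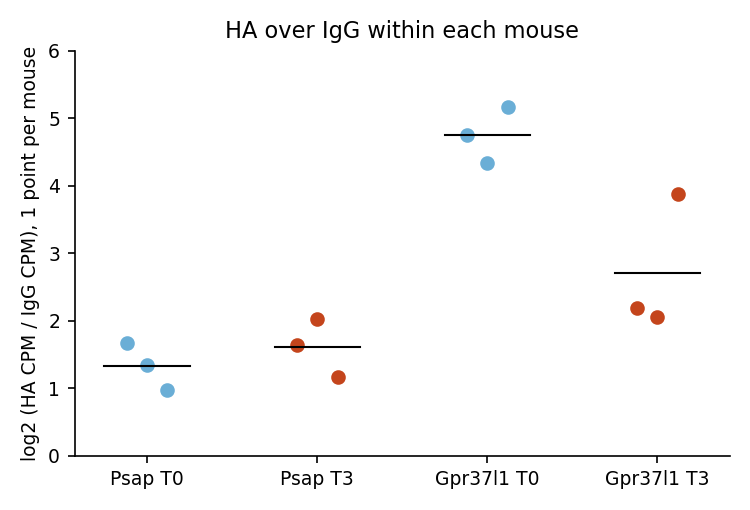
Ratio of HA to IgG CPM in each mouse (points, log2 scale, 1 point per mouse, horizontal lines are means) for Psap and Gpr37l1 at T0 and T3. Psap lies between 1.96- and 4.08-fold at both times, while Gpr37l1 lies between 20.3- and 35.95-fold at T0 and between 4.14- and 14.7-fold at T3. Counting error is not drawn.

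The change over the first 3 h was then examined in the HA libraries. Psap rose from 1782 ± 480.4 CPM at T0 to 2510 ± 607.4 at T3 (SD, n = 3), from rank 54 to rank 26. The groups overlapped, because animal 1 of T0 (2294 CPM) lay above animals 3 and 4 of T3 (2171 and 2149 CPM). The log2 fold change was 0.74 (SE 0.22, 95% interval 0.31 to 1.18, adjusted p = 0.0153, edgeR's quasi-likelihood test). The call was lost with total counts as scaling (0.49, adjusted p = 0.0540), without animal 2 of T0 (0.71, adjusted p = 0.0519) and without animal 1 of T3 (0.56, adjusted p = 0.0787), with adjusted p from 0.00232 to 0.0787 over the 13 alternatives. Psap was therefore the least secure of the 3 calls.

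Gpr37l1 fell from 1723 ± 153.97 CPM in HA T0 to 784.9 ± 217.5 CPM in HA T3 (SD, n = 3), and from rank 57 to rank 204. No HA T3 library reached the lowest HA T0 library, the highest of T3 being animal 3 at 1036 CPM and the lowest of T0 animal 2 at 1566 CPM. In edgeR the log2 fold change was -0.87, with an SE of 0.19 and an adjusted p of 0.00174. The call held in 13 of 13 alternatives, with log2 fold changes from -1.18 to -0.75.

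Gpr37 fell from 51.8 ± 14.9 CPM to 11.9 ± 8.53 CPM (SD, n = 3). The 95% Poisson interval of the highest T3 library, animal 3 (21.4 CPM, 14.6 to 30.2), ended below that of the lowest T0 library, animal 1 (41.8 CPM, 34.4 to 50.5). Its log2 fold change was -1.81 (SE 0.37, adjusted p = 0.00207, edgeR), the 96th largest fall of 9441 genes. This call also held in 13 of 13 alternatives, from -2.67 to -1.44. All 3 genes were called in a comparison that called 33.8% of genes, 18.7% higher and 15.1% lower, and both receptors were without overlap where 50.8% of genes were.

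These fold changes rest on TMM scaling, which sets the bulk of genes near 0 (median log2 fold change -0.02), whereas CPM follows library totals. With total counts the median of all genes was -0.28, and 31.4% of the called genes were higher at T3, against 55.4% with TMM. Against either median Psap was higher and both receptors were lower.

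Ratios of counts inside a library need no scaling, and 0.5 was added to both counts of each ratio, which lowers those over the 6, 32 and 12 Gpr37 counts of HA T3. The ratio of Psap to Gpr37l1 was 1.22, 1.09 and 0.776 in the HA T0 libraries and 4.79, 2.10 and 3.31 in the HA T3 libraries, a geometric mean 3.18-fold higher at T3. Psap to Gpr37 went from 54.6, 38.0 and 19.4 to 603.8, 99.9 and 220.8, 6.92-fold higher at T3. Gpr37l1 to Gpr37 went from 44.6, 34.8 and 24.995 to 125.9, 47.7 and 66.8, 2.18-fold higher at T3.

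In all 3 ratios the T3 mice lay above the T0 mice. The exact two-sided permutation test gave p = 0.1 for each of the 3 ratios (also 0.1 after Benjamini-Hochberg adjustment), which is the smallest p that 3 against 3 mice allow, so these differences could not pass 0.05. Animal 1 of T3, the library with the highest Psap and the lowest Gpr37, had the highest value of each ratio at that time, and animal 4 of T0 the lowest of each at T0. The ratios compare transcripts within a library and do not give the relative amounts of the proteins.

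**Figure D3:**
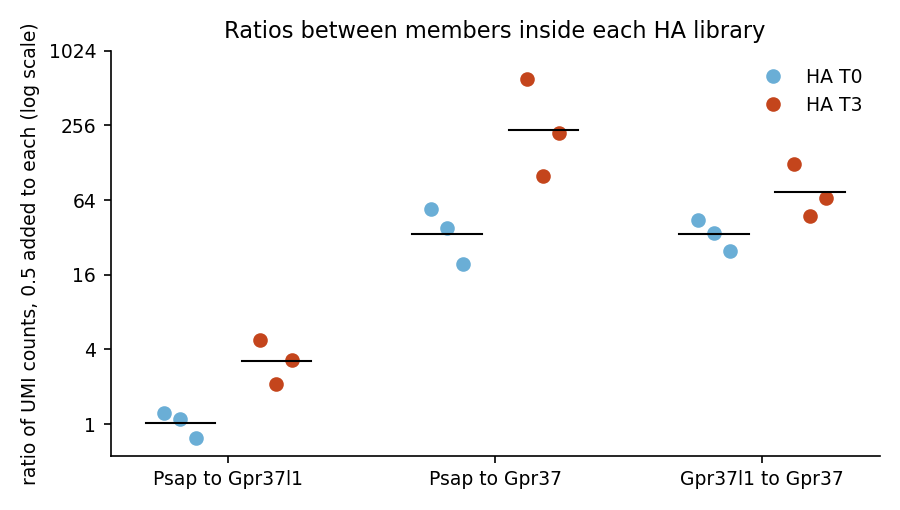
Ratio of UMI counts between pairs of the 3 genes in each HA library (points, log axis, 0.5 added to both counts), with the geometric mean of each group as a line. For Psap to Gpr37l1 the T0 libraries lie between 0.776 and 1.22 and the T3 libraries between 2.10 and 4.79, and the groups are likewise apart for the other 2 ratios.

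Levels of other cell markers in the same HA libraries are given beside these changes. The summed level of 14 glial markers (Gpr37l1 left out) was 3501 to 4511 CPM at T0 and 9989 to 10742 CPM at T3. Cryab, a small heat shock protein (from 1101 to 1416 up to 5481 to 6284 CPM), and Gfap, a filament protein (from 95.5 to 129.8 up to 1515 to 1960 CPM), carried this gain. Without both, a split chosen after the values were seen, the other 12 summed to 2304 to 2992 CPM at T0 and 2551 to 2942 CPM at T3, and the times overlapped. Of the list with Gpr37l1, 4 genes rose, 1 fell and 9 did not pass, Gpr37l1 being the one that fell. Scaled by total counts, 3 of the list rose and 2 fell. The median log2 fold change of this list was 0.32, against -0.02 for all genes. With total counts, the scale of CPM, it was 0.05 against -0.28. Sox10, a glial transcription factor and 1 of the 9 that did not pass, had a log2 fold change of -0.26 (adjusted p = 0.462, edgeR). Its values overlapped between the times. Interstitial cell markers summed to 2741 to 3485 CPM at T0 and 1216 to 1588 at T3, none of the 4 genes at 0, and 3 of them fell, among them Kit by 1.11 on the log2 scale (adjusted p = 9.08e-05). Macrophages, which are rich in lysosomes, were represented by 14 markers that summed to 677.6 to 1338 CPM at T0 and 436.2 to 746.9 CPM at T3, none at 0. Of 8 tested, 1 rose and 3 fell.

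Neutrophil and monocyte markers, 4 genes, summed to 6.27 to 16.2 CPM in HA T0 and 22.1 to 116.2 CPM in HA T3. The one tested, S100a9, a protein abundant in neutrophils, rose from 3, 1 and 1 counts to 120, 25 and 24 (log2 fold change 6.11, adjusted p = 0.0170, edgeR). Its highest library, at 98.2 CPM against 16.7 and 18.7 CPM in the other two of T3, was that of animal 1, which also had the highest Psap and without which the Psap call was lost. Of 10 neuronal markers tested 3 rose and 0 fell, and the list summed to 1091 to 1295 CPM at T0 and 1210 to 2125 at T3. In 9 smooth muscle markers 3 fell, with sums of 15606 to 23935 CPM and 12918 to 15218 CPM. Fibroblast markers fell in 4 of 6 genes, from 853.8 to 1055 CPM down to 217.2 to 426.6 CPM. Mesothelial markers fell in 4 of 4 tested, from 141.1 to 180.8 CPM down to 14.01 to 18.8 CPM. Both endothelial markers tested did not pass, with sums of 24.2 to 40.8 CPM and 12.5 to 28.1 CPM. No marker of these lists found in the table was at 0 in all 3 libraries of either time. The part of these markers in the changes of Psap and of the receptors was not tested, and in such bulk material fewer cells and less RNA per cell cannot be told apart.

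The IgG libraries measured the background in the same way. Psap went from 693.2 ± 27.2 CPM at T0 to 839.5 ± 268.8 at T3 (SD, n = 3), with a log2 fold change of 0.26 (95% interval -0.34 to 0.87, adjusted p = 0.666, edgeR). Gpr37l1 went from 64.9 ± 15.1 to 147.2 ± 102.8 CPM (1.03, 95% interval 0.06 to 2.00, adjusted p = 0.248). That interval takes a normal approximation and is narrower than the test allows. In edgeR 0 of the 2 genes tested had an unadjusted p under 0.05. The T3 values of Gpr37l1 were spread from 44.3 to 249.9 CPM around all T0 values. The other 14 glial markers summed to 833.1 to 990.1 CPM in IgG T0 and 861.1 to 2394 CPM in IgG T3. Without Cryab and Gfap the remaining 12 summed to 189.2 to 304 CPM in IgG T0 and 161 to 1305 CPM in IgG T3. The part of these markers in the spread was not tested. Neither gene passed in a comparison in which 5.46% of genes were called, 4.43% higher and 1.03% lower, and in which 26% did not overlap, and Gpr37 could not be tested with 1 count at each time.

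A test of the interaction of antibody and time asked if HA and IgG moved apart. For Psap it was 0.57 on the log2 scale (95% interval -0.18 to 1.32, adjusted p = 0.638). For Gpr37l1 it was -1.76 (SE 0.52, 95% interval -2.78 to -0.75), a more negative change in HA, with an unadjusted p of 0.00253 in edgeR and an adjusted p of 0.185. With the animal as a block, which uses the split of each homogenate, the value was -1.71 and passed (adjusted p = 0.0100). It also passed in DESeq2 (-1.97, adjusted p = 0.0314) and without IgG T3 animal 4 (-2.38, adjusted p = 0.00395), and adjusted p ranged from 0.00395 to 0.439 over 18 alternatives.

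Gpr37 had a fitted interaction of -3.90 (adjusted p = 0.610) that rests on the 2 IgG counts and turned to 0.57 without IgG T3 animal 3. Across all genes edgeR called 34 of 10314 (0.33%, with 0.301% more positive and 0.0291% more negative in HA), and 156 with the animal as a block. With total counts 8 were called, 6 more positive and 2 more negative against 31 and 3 with TMM, and the median of all genes moved from 0.17 to -0.18. Kit, the interstitial cell marker, also had a more negative change in HA (-2.06, adjusted p = 0.0360). With all libraries and no block, 0 of the 3 genes were called in edgeR, 1 had an unadjusted p under 0.05 and 1 was called in DESeq2.

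The genes around prosaposin were taken from 7 lists of sorting receptors, lipid hydrolases, lysosomal proteases, lysosomal membrane and biogenesis genes, related peptide receptors, inhibitory G protein alpha subunits and receptor partners. Without Psap, Gpr37 and Gpr37l1 these lists named 47 genes, of which 41 were in the table. At T0, 23 of 38 tested were higher in HA, 4 were lower and 11 did not pass (median log2 fold change 0.99, against -0.02 for all genes). Over all genes 30.3% were called here, 16% higher and 14.4% lower, and the counts of the single lists at T0 are to be read against these shares. All counts of HA against IgG come from the fit without the animal as a block, with which 31 in place of 27 pathway genes were called at T0. Among sorting and uptake genes 3 of 5 were higher, including M6pr, which encodes a mannose 6-phosphate receptor (2.03, adjusted p = 3.68e-06), and Sort1, which encodes the sorting receptor sortilin (1.19, adjusted p = 0.000511).

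Lipid hydrolases were higher in HA in 7 of 9 genes tested. They included Asah1, the acid ceramidase (1.74, adjusted p = 0.000577), and Hexa, a hexosaminidase subunit (1.55, adjusted p = 0.00100). Of 5 lysosomal proteases 4 were higher, with Ctsb (cathepsin B) at 2.19 (adjusted p = 2.77e-05) and Ctsd, cathepsin D, which cuts prosaposin, at 1.16 (adjusted p = 0.00046). Of 12 membrane and biogenesis genes 6 were higher and 1 lower. Scarb2, a lysosomal membrane protein and sorting receptor, was at 3.45 (adjusted p = 3.29e-07), Npc1, a cholesterol transporter, at 2.25 (adjusted p = 6.99e-05) and Lamp1, another lysosomal membrane protein, at 2.06 (adjusted p = 2.85e-05). In the same libraries 0 of 13 macrophage markers were higher in HA (also 0 in DESeq2) and 4 were lower, with 6 at an unadjusted p under 0.05 in edgeR.

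By count of genes, the inhibitory alpha subunits, to which both receptors are reported to couple, went mostly the other way at T0. Of 5 tested, 1 was higher in HA, Gnai2 (0.79, adjusted p = 0.0100), and 3 were lower, among them Gnao1 (-1.08, adjusted p = 0.00173), which is abundant in neurons, and Gnai3 (-1.51, adjusted p = 0.00314). The third lower gene kept its call in 9 of 13 alternatives. Gnai2 had the highest mean level of the 5, at 1775 CPM in HA and 1012 CPM in IgG. Gnao1 was at 207.7 and 433.8 CPM, and Gnai3 at 14.3 and 42.4 CPM. Of 10 neuronal markers 6 were lower in HA. Both related peptide receptors tested were called higher in HA, among them Ednra, an endothelin receptor (2.56, adjusted p = 0.000118).

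At T3, 11 of 35 tested pathway genes were higher in HA, 3 were lower and 21 did not pass (median 0.82, against 0.02 for all genes), where 11.8% of all genes were higher and 10.2% lower. The 14 calls became 20 without a filter, 17 with a filter of 5 counts in 1 library, 19 with all 12 libraries in the fit (18 higher and 1 lower of 38 tested) and 13 with the animal as a block. They dropped to 7 without HA T3 animal 1 or animal 3, to 9 without HA T3 animal 4 and to 8 without IgG T3 animal 4. Genes that kept their call in 13 of 13 alternatives included Scarb2 (2.90, adjusted p = 5.73e-05), Lamp1 (1.65, adjusted p = 0.000332), Lgmn, the protease legumain (1.29, adjusted p = 0.00263), and Gnao1, which was lower (-1.48, adjusted p = 0.00499).

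Over time in HA, pathway genes were called in both directions. Of 38 tested, 5 were higher at T3, 5 were lower and 28 did not pass, with a median of 0.10 against -0.02 for all genes. With total counts 4 were higher and 8 lower, with a median of -0.17 against -0.28. These 10 calls stand beside 33.8% of all genes called in the comparison, 18.7% higher and 15.1% lower. In neither direction did the pathway genes exceed the share of all genes.

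The 5 genes that rose were all in the list of lysosomal membrane and biogenesis genes. Cd63, a tetraspanin of late endosomes, went from 755.96, 797.9 and 589.1 to 1571, 1664 and 1479 CPM (log2 fold change 1.40, SE 0.18, adjusted p = 4.72e-06). Tfe3 and Tfeb, transcription factors that drive lysosomal genes, had changes of 1.46 (adjusted p = 1.99e-05) and 1.05 (adjusted p = 0.000914). Atp6v1h, a subunit of the proton pump, had one of 1.23 (adjusted p = 0.000306). None of these 4 overlapped between the times, where 50.8% of all genes did not, and their calls held in 13 of 13 alternatives.

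The fifth gene that rose, Scarb2 (0.63, adjusted p = 0.0106), was named after its values were seen. Its call was lost with total counts (adjusted p = 0.0929), with all 12 libraries in the fit (0.0618), without HA T0 animal 4 (0.0523) and without HA T3 animal 1 (0.0627), with a range from 0.00316 to 0.0929 over its alternatives.

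Among the 5 genes that fell, Asah1 went from 154.7, 133.5 and 197.5 CPM to 42.6, 74.2 and 41.3 CPM (log2 fold change -1.34, SE 0.23, adjusted p = 0.000141). Ednra went from 41.8, 42.5 and 70.02 CPM to 4.09, 12.7 and 7.79 CPM (-2.34, SE 0.33, adjusted p = 1.98e-05). In both genes, as in Gpr37, the highest naive library was that of animal 4 and the highest library of T3 that of animal 3. Their calls held in 13 of 13 alternatives. Ednrb, the other endothelin receptor, stood at 114.8, 82.1 and 133.1 CPM in HA T0 and at 85.1, 80.2 and 70.9 CPM in HA T3 (-0.22, adjusted p = 0.401).

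Grn, which encodes progranulin, a partner of prosaposin on its way to the lysosome, had a log2 fold change of -0.63 (adjusted p = 0.0150). This call was lost without HA T0 animal 2 (adjusted p = 0.103), without HA T3 animal 4 (0.0746) and with all 12 libraries in the fit (0.0530). Smpd1, the acid sphingomyelinase, had one of -0.62 (adjusted p = 0.0105). Atp6v0d1, a proton pump subunit, also had one of -0.62 (adjusted p = 0.0166) and lost its call without HA T3 animal 1 (0.107) or animal 4 (0.0547) and with all 12 libraries in the fit (0.0548). Over their alternatives the adjusted p ranged from 0.000355 to 0.187 for Grn, from 0.000307 to 0.0614 for Smpd1 and from 0.000817 to 0.107 for Atp6v0d1.

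The lists of proteases and alpha subunits held no call. Of the 5 proteases and of the 5 alpha subunits 0 were called in HA T3 against T0, and 0 of either list had an unadjusted p under 0.05 in edgeR's test; DESeq2 also called 0 of each list. Of the 5 sorting and uptake genes only Grn was called, while 4 had an unadjusted p under 0.05. With total counts 3 of the 5 were lower, and with all 12 libraries in the fit 0 were called. M6pr had a log2 fold change of -0.41 (adjusted p = 0.0643) and Sort1 one of -0.38 (adjusted p = 0.0959). Both were without overlap in CPM between the times, as were 50.8% of all genes tested. The share of all genes called here was 33.8%.

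**Figure D4:**
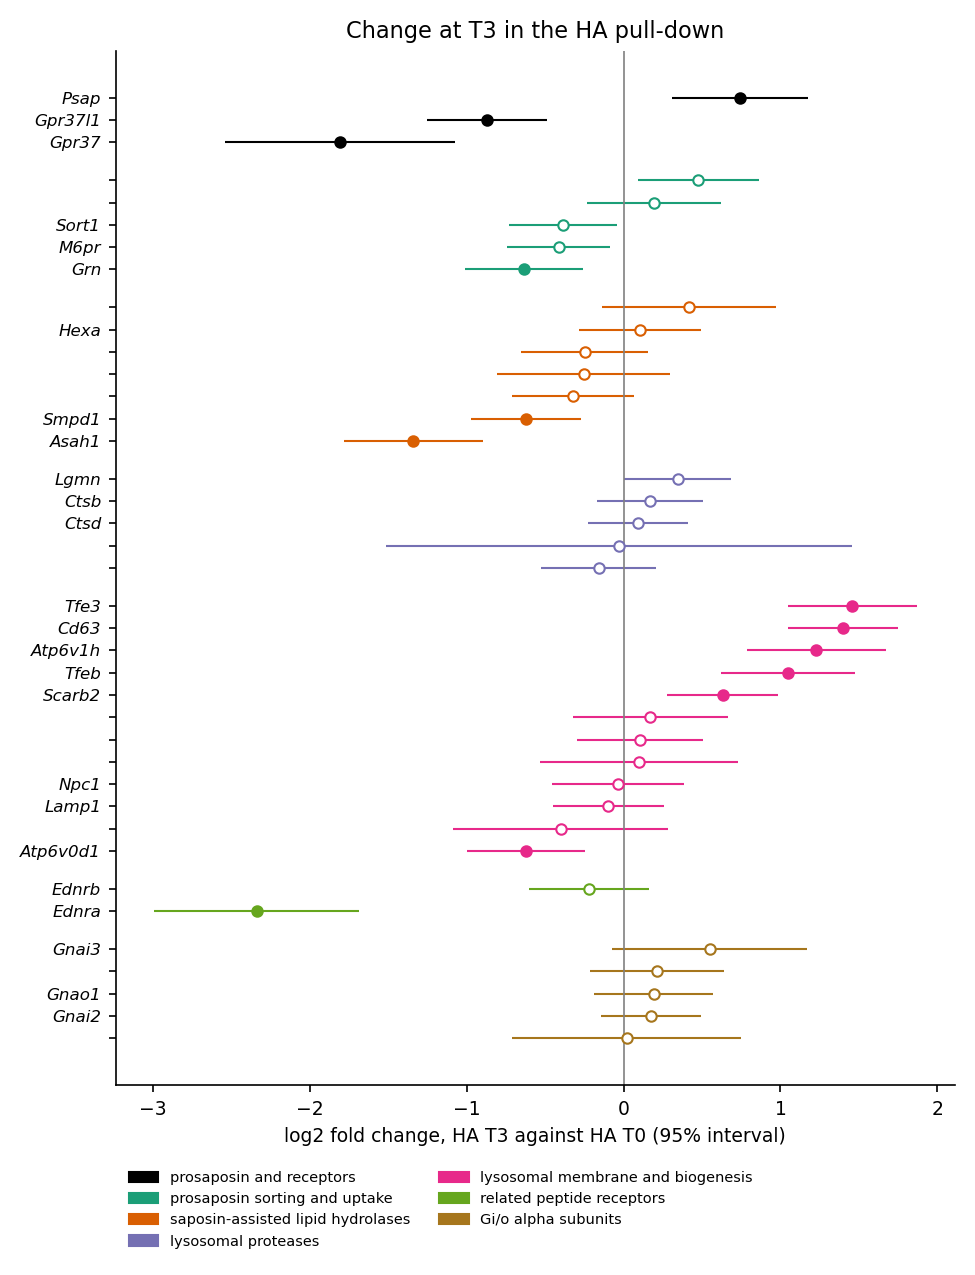
Log2 fold change in HA, T3 against T0, with 95% intervals for Psap, the 2 receptors and pathway genes tested (2 of the lipid hydrolases are not shown), coloured by list and labelled where the text names them, with filled points for an adjusted p under 0.05 and open points otherwise. Psap (0.74) stands apart from Gpr37l1 (-0.87) and Gpr37 (-1.81), and the genes that rose besides Psap are lysosomal membrane and biogenesis genes.

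In the IgG libraries 0 of 30 pathway genes tested were called over time in edgeR's test, where 5.46% of all genes were called. Of the pathway genes 4 had an unadjusted p under 0.05 and 1 was called in DESeq2. The interaction was passed by 0 of 38, against 0.33% of all genes, with 1 at an unadjusted p under 0.05 and 0 in DESeq2. At such low shares 0 calls in lists of this size do not show an absence of change.

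Genes with the most similar profile were ranked by Pearson's r of log2 CPM, as a description across libraries that share animals, antibody and depth. Over all 12 libraries and 10314 genes, Psap was closest to Ngfr (r = 0.97), a neurotrophin receptor, and to Atp6ap1 (0.97), an accessory subunit of the proton pump, followed by Acadsb, Chpf and Pcdh1 (each 0.96). Gpr37l1 was closest to Islr and M6pr (both 0.99), followed by Adgra3, Slco3a1 and Clstn1 (each 0.98). Gpr37 was closest to Heyl and Gnptg (both 0.95), followed by Chst5, Sh2b1 and Slc37a4 (each 0.94). The receptors had an r of 0.94 with each other, while Psap had 0.76 with Gpr37l1 and 0.55 with Gpr37.

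Within the 6 HA libraries and 9441 genes the order was different. Gpr37 and Gpr37l1 still ran together (r = 0.94), and Psap ran against both, with -0.88 for Gpr37 and -0.69 for Gpr37l1. The nearest genes were Acsl4, Ier3ip1, Ranbp2, Gdi2 and Stim1 for Psap (0.98 to 0.99). They were 1190007I07Rik, Pdcd2l, Chchd7, Sumf2 and Ppapdc1b for Gpr37 (0.99 to 1.00) and Trappc6b, Fkbp9, Abcc2, Cd151 and Enpep for Gpr37l1 (each 0.99). With 6 libraries in 2 groups these values mainly describe the step between T0 and T3.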

How the data were processed

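RNA from the RiboTag pull-downs was turned into 3′ libraries with UMIs by bulk MARS-seq. Up to 8 samples were amplified as one pool, and which samples these were is not given in the sources used here. The authors deposited whole-number UMI counts per gene without normalization, made per the submitters' processing notes with cutadapt, STAR 2.4.2a and HTSeq on mm10, with an annotation given as Gencode version 10, from reads with unique mapping. This can reduce the counts of near-identical genes; strand use is not stated. The series table and single sample files differed in 0 values.

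Counts were fitted over all genes with edgeR 4.0.16 in R 4.3.3 (quasi-likelihood test, robust, TMM, filterByExpr, no covariates), with Benjamini-Hochberg adjustment per comparison and a threshold of 0.05. Comparisons of 2 groups used their 6 libraries and the interaction used all 12. Standard errors were derived from the F statistic. The 95% intervals of log2 fold changes take a normal approximation on them, which makes these intervals narrower than the test allows. Replicates are separate mice. Intervals of counts are exact, at 95%, and a count of 0 allows 3 counts; both cover counting error only. In ratios between 2 genes of a library, printed and tested alike, 0.5 was added to both counts. The steps were tested on simulated data.

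HA and IgG libraries of one mouse come from one homogenate and are paired: their deviations from group means correlated by 0.27 in each mouse at T0 and 0.09 to 0.16 at T3 over 10314 genes. Equal numbers at T0 and T3 are different mice.

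Alternatives were RLE size factors (DESeq2), total counts, other filters, the DESeq2 1.42.0 Wald test, all 12 libraries, a replicate block and leaving out each library. Named were the 3 genes, of each pathway list up to 4 called genes per direction with the smallest p, and the 5 most similar genes; a few of these go unreported here but stay in every test and count. The members and lists were chosen with earlier results of these data known. Gene positions are from GENCODE vM21 (GRCm38). Promoter windows matched all 3 genes by symbol.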

Additional observations from a re-analysis of the deposited data

How the results depend on the processing

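The T0 enrichment of Psap, Gpr37 and Gpr37l1, the T3 enrichment of Psap and Gpr37l1 and the fall of both receptors in HA kept direction and call in all 13 alternatives. The Psap rise in HA lost its call with total counts (0.49) and when single libraries were left out (0.53 to 0.98 over those fits). In the interaction, Gpr37l1 gained a call with DESeq2 (-1.97) and with the replicate block (-1.71), and leaving out single libraries gave -2.38 to -1.16. Gpr37 turned to 0.57 without IgG T3 animal 3 (from -6.23 over those fits). The cause of these changes was not tested.

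Counts of called genes also moved. For HA against IgG at T3, leaving out single libraries gave 849 to 1977 genes and 7 to 15 pathway genes (1578 and 14 with all libraries). For IgG over time, 285 genes became 519 without a filter, 704 with all 12 libraries and 167 to 333 without single libraries. Pathway genes called there were 1 with total counts, without a filter and with DESeq2, 2 with all 12 libraries, and 0 to 1 without single libraries. The 34 genes of the interaction became 20 with RLE, 8 with total counts, 80 with DESeq2, 156 with the replicate block and 5 to 95 without single libraries.

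In HA against IgG the block is the mouse, and apart from the interaction it changed no call of the 3 genes. It took the calls at T0 from 2980 to 3807 genes and from 27 to 31 pathway genes, and those at T3 from 1578 to 1607 and from 14 to 13. Over time the block joins mice that share only a number (1 and 4), and there Grn (adjusted p = 0.187) and Smpd1 (0.0614) were without a call. The ratios and levels stayed within the spread between replicates or kept their direction in 21 of 21 and 12 of 12 alternatives. Depth limits Gpr37 in IgG, with 1 count at each time, and all IgG T3 values.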
